A study of Mus musculus with 6 samples.

Results

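The genes followed here are 31 genes of DNA repair by homologous recombination and by interstrand crosslink repair, measured in M2-polarized bone marrow-derived macrophages (BMDM-M2). They were chosen by gene symbol from a deposited table of 41549 genes, and the row of each symbol was used as listed. All 31 were found, and all 31 passed a low-count filter that 11933 genes of the table passed. The libraries came from wild type C57Bl/6 N mice. Bone marrow cells were grown into Mφs with M-CSF, transfected while still unpolarized with a locked nucleic acid inhibitor carried by a lipid reagent, and then polarized with IL-4 and IL-13. In the αGlu group the inhibitor was an antisense oligonucleotide against 5′tRF-Glu(CTC), a piece of a glutamate tRNA that begins at its 5′ end, and in the Ctr group it was a control inhibitor. Each group had 3 libraries, which the study describes as independent experiments. Polyadenylated RNA was sequenced from stranded libraries, so the tRNA fragment itself was not measured in these libraries.

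Homologous recombination rejoins a broken chromosome by copying the sister chromatid. The ends are recognized by Mre11, Rad50 and Nbn and resected to single strands by nucleases such as Exo1, after which Brca1, Palb2 and Brca2 prepare the strands for pairing, and Rad54 proteins help them to invade the intact copy. Crosslinks between the strands are met by the Fanconi anaemia pathway, whose core complex and the ubiquitin-conjugating enzyme Ube2t attach ubiquitin to Fancd2 and Fanci. The kinases Atm and Atr, with their effectors Chek2 and Chek1, hold the cell cycle meanwhile, and many of these genes are made mainly by cells that copy their DNA.

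The oligonucleotide that defined the αGlu group and its target are shown 5′ to 3′ as the study lists them. The capitals mark bases 2 to 21 of the target, which pair with the antisense oligonucleotide over its 20 bases.
antisense: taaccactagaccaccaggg
target: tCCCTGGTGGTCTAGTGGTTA
The annotated transcripts (GENCODE M21) of the 31 repair genes were searched on the sense strand for these paired bases. No member held all 20 bases. The longest shared stretch was between 6 and 11 bases per gene, with 11 bases in Chek2, 9 in Rad54l and 8 in Chek1.

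Promoter sequence of 300 bases, from 250 before to 50 after the start, was listed by RefSeq (GRCm38.p6) for 25 of the 31 genes. Nbn, Fancd2, Xrcc2, Exo1, Rad50 and Rad54b had no entry. Short words known from promoters of proliferation genes were searched on both strands, and an overlap between words was allowed. The CCAAT box, CCAAT, occurred in 16 of the 25 promoters (64.0%), against 39.4% of the 9395 promoters of genes tested here. An E2F word, TTTCCCGC, TTTCGCGC, TTTGCCGC or TTTGGCGC, occurred in 6 of the 25 (24%), against 4.3%. The cell cycle homology word TTTGAA occurred in 2 of the 25 (8.0%), against 12.2%. Chek1 and Fanci, the members with the smallest p, held none of these words in their listed promoters. The last 120 bases before the start are shown only for examples that hold a CCAAT box, with and without a difference between the groups. CCAAT or its complement ATTGG is in capitals.
Rad54l, chr4:116123691-116123810, minus strand: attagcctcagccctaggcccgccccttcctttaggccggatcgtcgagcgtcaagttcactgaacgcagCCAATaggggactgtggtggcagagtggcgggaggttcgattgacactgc
Brip1, chr11:86201194-86201313, minus strand: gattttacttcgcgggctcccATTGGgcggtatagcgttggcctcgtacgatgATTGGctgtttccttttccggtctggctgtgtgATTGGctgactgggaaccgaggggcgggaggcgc
Ube2t, chr1:134962445-134962564, plus strand: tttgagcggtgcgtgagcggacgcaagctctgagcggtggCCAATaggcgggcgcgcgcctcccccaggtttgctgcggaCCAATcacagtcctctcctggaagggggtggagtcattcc
Rad51b, chr12:79297162-79297281, plus strand: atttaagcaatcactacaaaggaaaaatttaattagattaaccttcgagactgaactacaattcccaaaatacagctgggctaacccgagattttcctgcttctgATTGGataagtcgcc
Rad54l and Brip1 had lower values in every αGlu library than in any Ctr library, whereas the groups overlapped for Ube2t and Rad51b. The CCAAT box was found in 7 of the 10 listed promoters of genes whose αGlu values all lay below Ctr and in 9 of the other 15. The E2F words were found in 1 of those 10 and in 5 of the other 15. A match is a description of these letters and not of a bound factor.

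Total counts were between 17912831 and 30386653 per library, and 14539 to 15295 genes had reads. The libraries carried the markers of Mφs, with 8 of 8 macrophage genes above 1 CPM (reads scaled to a common library size) on average and a summed level of 11849 to 13404 CPM in Ctr and 12594 to 18784 CPM in αGlu. Lymphocyte markers summed to at most 0.346 CPM. Of 9 neutrophil markers 1, Ly6g, had no reads, but 3 exceeded 1 CPM on average, with Csf3r at 103 to 607 CPM. One library stood apart from its label. The chi-square between αGlu 1 and the Ctr libraries was 26.7 to 74.6 per gene over the 11933 genes, but 253 and 251 against αGlu 2 and αGlu 3, which differed by 21.6 from each other. For this reason results are given with all 6 libraries, and the calls and some of the fold changes are also given without αGlu 1.

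No repair gene passed the test with all 6 libraries. The edgeR quasi-likelihood test (adjusted p under 0.1 and a log2 fold change beyond 1 in either direction) called 0 of 31 members, beside 0% of the 11933 genes tested. At an unadjusted p under 0.05 there were 11 members with lower values in αGlu, against 11.9% of all genes tested in that direction, and 1 with higher values, against 12.7%. The values of all 3 αGlu libraries lay below all 3 Ctr libraries for 13 members, against 15.9% of all genes tested, and above them for 0 members, against 14.2%. DESeq2 called 6 members as lower, against 3.92% of the genes it tested, and limma-voom called 0. Without αGlu 1 the edgeR test called 6 members as lower, against 10.5%. They were the same 6 genes as with DESeq2, namely Chek1, Fanci, Exo1, Fancd2, Rad54l and Rad54b. Brip1, Fancb, Fancc, Fancm, Topbp1, Mre11a, Xrcc2 and, with higher values, Mus81 also had an adjusted p under 0.1 by edgeR without αGlu 1, but not a log2 fold change beyond 1. The share of all genes without that fold limit was not counted in this setting. These genes can therefore not be set against a background.

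The log2 fold changes of the members, αGlu over Ctr, were between -2.26 and 0.36 with a median of -0.28, beside a median of 0.02 over all genes tested. A negative value was found for 23 members and a positive one for 8. Without αGlu 1 the median of the members was -0.40. The mean log2 CPM of the 31 genes was 2.39, 2.02 and 2.22 in Ctr 1 to 3 and 1.91, 1.69 and 1.60 in αGlu 1 to 3, so that every αGlu library lay below every Ctr library, with a difference of -0.48 between the group means. The mean over all genes tested was also lower in each αGlu library, by a difference of -0.04. In bulk RNA, fewer cells that express a gene and less RNA per cell cannot be told apart.

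**Figure D1:**
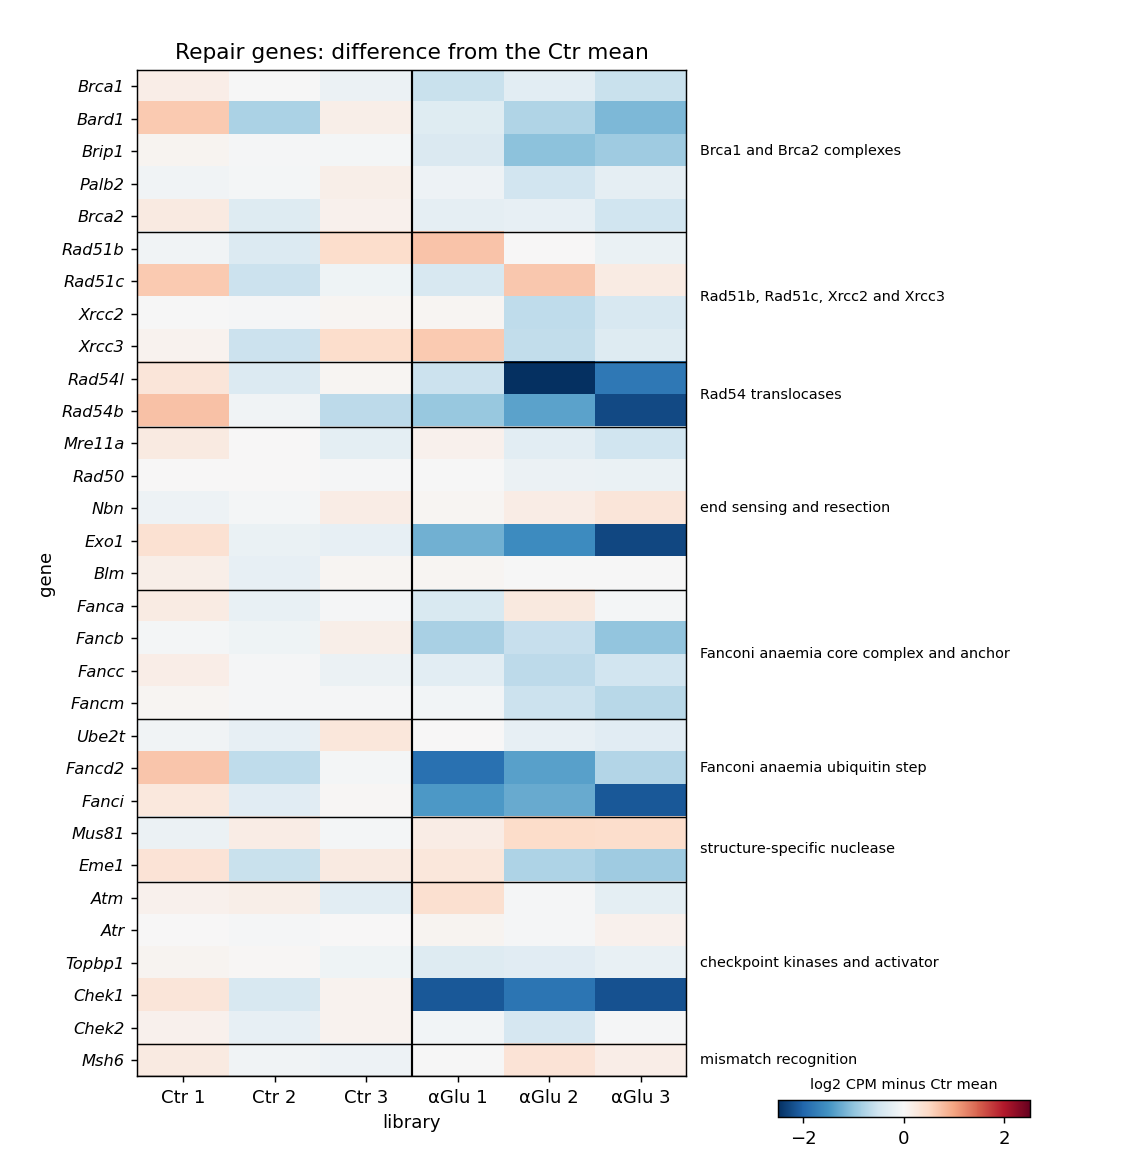
Log2 CPM of each of the 31 repair genes (rows, grouped by role) in each of the 6 libraries (columns), as the difference from the mean of the 3 Ctr libraries. Chek1, Fanci, Exo1 and Rad54b are blue in all 3 αGlu libraries, Rad54l is darkest in αGlu 2, and Rad50, Blm and Atr stay near white throughout.

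Differences were larger among the members with fewer reads, and so were their standard errors. The SE was 0.13 to 0.60 for members with a Ctr mean under 10 CPM and 0.07 to 0.20 for the others. The 8 members with a Ctr mean of at least 10 CPM had log2 fold changes between -0.27 and 0.18 (median -0.03), and 1 of them had all αGlu values below Ctr. The 23 members under 10 CPM had log2 fold changes between -2.26 and 0.36 (median -0.46), and 12 of them had all αGlu values below Ctr. Over all genes tested the share with all αGlu values below Ctr was 16.3% at 10 CPM or more and 15.2% under it. On the per-length TPM scale the Ctr levels of the members ran from 0.301 ± 0.159 for Rad51c to 24.5 ± 2.68 for Nbn (SD, n = 3). Nbn, Rad50 (24.4 ± 0.715 TPM) and Chek2 (23.2 ± 2.91 TPM) formed the top of that order and did not differ beyond their spread, and Topbp1 followed with 14.4 ± 1.11 TPM. Brca2 (0.532 ± 0.110 TPM) and Exo1 (0.571 ± 0.153 TPM) were among the lowest and overlapped with each other.

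**Figure D2:**
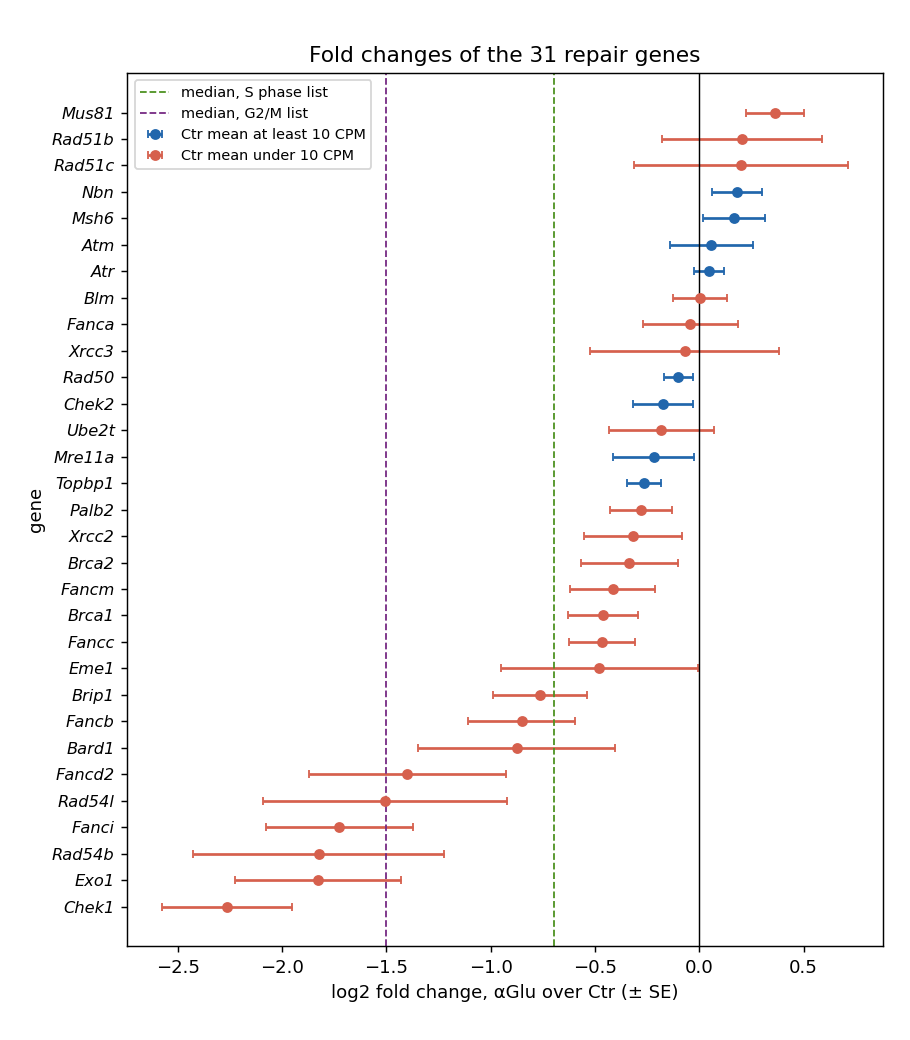
Log2 fold change of each repair gene, αGlu over Ctr, with its standard error, ordered by value and coloured by whether the Ctr mean reached 10 CPM. The blue points all lie between -0.27 and 0.18, and the 6 lowest points, from Fancd2 (-1.40) to Chek1 (-2.26), are all red and lie around the dashed median of the G2/M list (-1.5).

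The checkpoint kinases held both the gene with the smallest p of all members and genes with nearly equal values in the 2 groups. Chek1 (chr9:36708482-36727065, minus strand), the kinase that Atr activates when replication forks stall, had 2.23, 1.34 and 1.90 CPM in Ctr 1 to 3 and 0.344, 0.441 and 0.330 CPM in αGlu 1 to 3. The αGlu libraries lay close together and well under the lowest Ctr library, αGlu 1 included, although the counts behind them were small, with 6, 14 and 9 reads against 32 to 49 in Ctr. The log2 fold change was -2.26 ± 0.31 (SE), with an adjusted p of 0.149 by edgeR and 0.000104 by DESeq2. Without αGlu 1 it was -2.22, with an adjusted p of 0.00531 by edgeR.

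Topbp1, the activator of Atr, had 56.5, 54.7 and 49.8 CPM in Ctr and 42.6, 43.9 and 47.3 CPM in αGlu. The groups did not overlap, but the difference was small, with a log2 fold change of -0.27 ± 0.08 and an adjusted p of 0.160 by edgeR. Chek2, the effector kinase of Atm, had 24.8, 20.1 and 24.5 CPM in Ctr and 21.8, 17.1 and 22.4 CPM in αGlu. Its groups overlapped (-0.18 ± 0.14, adjusted p = 0.450 by edgeR).

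Atm (chr9:53439149-53536740, minus strand), the kinase that answers double-strand breaks, had 29.9, 30.5 and 23.0 CPM in Ctr and 36.6, 27.0 and 23.4 CPM in αGlu. Here αGlu 1 was the highest of all libraries and the other αGlu libraries lay within the Ctr range, so the small positive log2 fold change of 0.06 ± 0.20 became -0.15 without αGlu 1. Atr, the kinase that answers stalled forks, ranged from 25.5 to 26.2 CPM in Ctr and from 25.3 to 28.1 CPM in αGlu, with a log2 fold change of 0.05 ± 0.07. Thus the kinases at the head of the checkpoint had near equal levels in the 2 groups, while the lowest relative level was that of the effector Chek1.

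**Figure D3:**
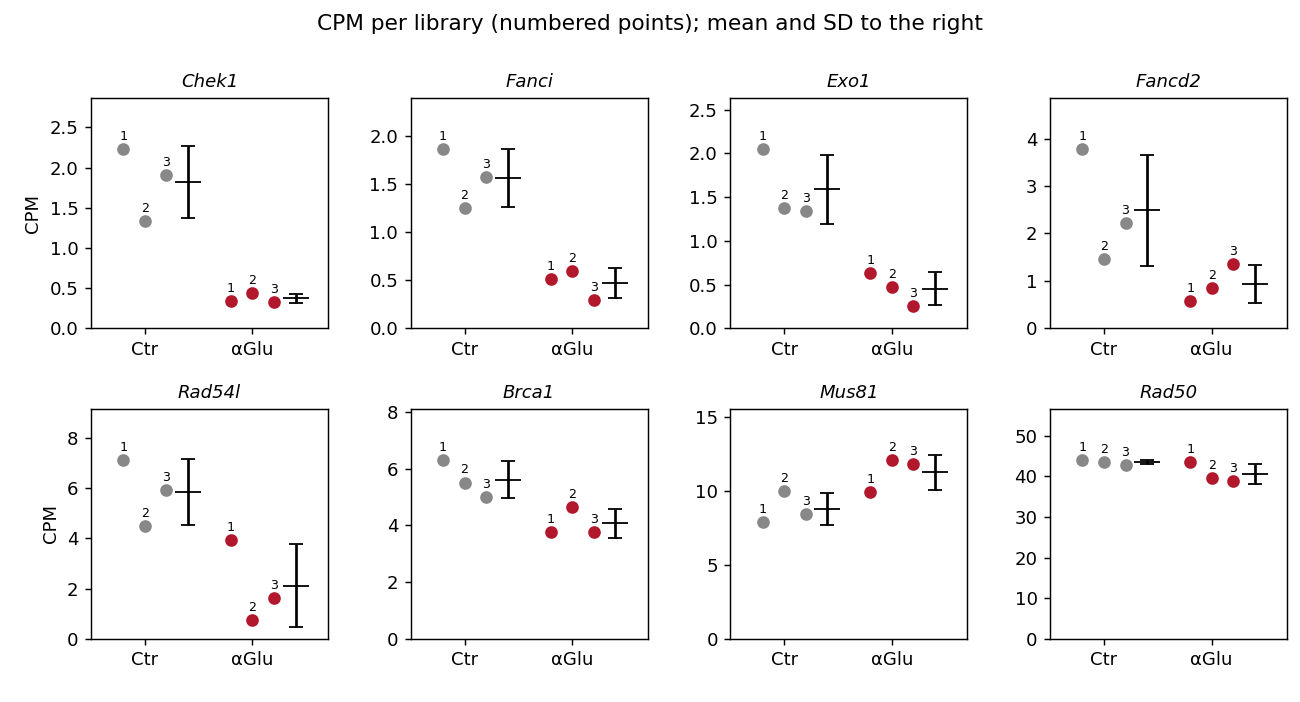
CPM of 8 repair genes in the 3 Ctr (grey) and 3 αGlu (red) libraries, numbered by replicate, with the mean and SD drawn to the right of each group. The red points of Chek1, at 0.330 to 0.441 CPM, lie under the grey ones at 1.34 to 2.23 CPM, those of Rad54l spread from 0.756 to 3.96 CPM, and the groups overlap for Mus81 and Rad50.

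Within the Fanconi anaemia pathway the lowest relative values were those of the ubiquitinated pair. Fanci (chr7:79391929-79450264, plus strand) had 1.86, 1.25 and 1.58 CPM in Ctr and 0.516, 0.598 and 0.293 CPM in αGlu. Its groups did not overlap, with 8 to 19 reads per αGlu library against 30 to 41 in Ctr. The log2 fold change was -1.73 ± 0.35, with an adjusted p of 0.149 by edgeR and 0.00562 by DESeq2. Fancd2 (chr6:113531682-113597017, plus strand), its partner, had 3.77, 1.46 and 2.23 CPM in Ctr and 0.574, 0.850 and 1.36 CPM in αGlu. The highest αGlu library lay just under the lowest Ctr library, and the Ctr libraries themselves spread widely. Its log2 fold change was -1.40 ± 0.47, with an adjusted p of 0.170 by edgeR and 0.0693 by DESeq2. Without αGlu 1 it was -1.18, with an adjusted p of 0.0941 by edgeR. Ube2t, the enzyme that supplies the ubiquitin to this pair, ranged from 1.13 to 1.62 CPM in Ctr and from 1.06 to 1.32 CPM in αGlu, and the groups overlapped (-0.18 ± 0.25, and -0.27 without αGlu 1).

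The core complex, which directs the ubiquitin to Fancd2 and Fanci, gave smaller differences. Fancb (chrX:164980592-164997272, plus strand), a subunit of its catalytic module, had 1.14, 1.09 and 1.30 CPM in Ctr and 0.631, 0.756 and 0.550 CPM in αGlu. The groups did not overlap and both were tight, with a log2 fold change of -0.85 ± 0.26 and an adjusted p of 0.160 by edgeR. Fancc, another subunit, had 8.68, 7.52 and 6.96 CPM in Ctr and 6.42, 4.88 and 5.50 CPM in αGlu. It also separated the groups (-0.47 ± 0.16, adjusted p = 0.173 by edgeR). Fancm, the translocase that anchors the complex to DNA, separated them only narrowly, with 5.29 to 5.59 CPM in Ctr and 3.30 to 5.16 CPM in αGlu, where αGlu 1 was the highest. Its log2 fold change was -0.42 ± 0.20 and became -0.62 without αGlu 1 (adjusted p = 0.0241 by edgeR). Fanca overlapped fully, with 2.88 to 3.82 CPM in Ctr and 2.52 to 3.90 CPM in αGlu (-0.04 ± 0.23).

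Among the proteins of the Brca1 and Brca2 complexes, lower values without overlap were found for Brip1, Brca1 and Palb2. Brip1 (chr11:86058138-86201193, minus strand), the helicase bound to Brca1, had 4.32, 4.01 and 3.99 CPM in Ctr and 3.15, 1.98 and 2.16 CPM in αGlu. The Ctr libraries lay within a narrow band and αGlu 1 was the αGlu library closest to it. Brip1 had a log2 fold change of -0.76 ± 0.23, with an adjusted p of 0.160 by edgeR and 0.0439 by DESeq2, and it did not reach the fold limit for a call. Brca1 (chr11:101488764-101551955, minus strand), the ubiquitin ligase that promotes resection, had 6.31, 5.52 and 5.01 CPM in Ctr and 3.79, 4.66 and 3.78 CPM in αGlu. Its lowest Ctr value lay slightly above its highest αGlu value, with a log2 fold change of -0.46 ± 0.17 and an adjusted p of 0.180 by edgeR.

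Brca2 (chr5:150522630-150570329, plus strand), the tumour suppressor that acts on resected single strands, had 2.77, 1.88 and 2.55 CPM in Ctr and 2.01, 2.05 and 1.65 CPM in αGlu. Ctr 2 lay within the αGlu range, and the log2 fold change of -0.34 ± 0.23 had an adjusted p of 0.376 by edgeR. Palb2, the bridge between Brca1 and Brca2, had 6.95 to 8.26 CPM in Ctr and 5.29 to 6.82 CPM in αGlu (-0.28 ± 0.15). Bard1, the partner of Brca1, spread from 0.669 to 1.95 CPM within Ctr alone and from 0.513 to 0.975 CPM in αGlu, so its log2 fold change of -0.88 carried an SE of 0.47.

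The related genes Rad51b, Rad51c, Xrcc2 and Xrcc3, whose products assist strand pairing, did not separate the groups. Rad51b ranged from 0.669 to 1.21 CPM in Ctr and from 0.770 to 1.49 CPM in αGlu, Rad51c from 0.251 to 0.681 and from 0.287 to 0.693 CPM, and Xrcc3 from 1.04 to 2.13 and from 0.976 to 2.47 CPM. Xrcc2 was the steadiest in Ctr (2.97 to 3.16 CPM) and had 1.92 to 3.15 CPM in αGlu. Their log2 fold changes were between -0.32 and 0.20. Without αGlu 1 they were -0.54 for Xrcc2, -0.56 for Xrcc3, -0.12 for Rad51b and 0.44 for Rad51c, and the signs of Rad51b, Rad51c and Xrcc3 changed when single libraries were left out.

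The translocases of strand invasion had lower values in αGlu. Rad54l (chr4:116094264-116123690, minus strand) had 7.13, 4.51 and 5.94 CPM in Ctr and 3.96, 0.756 and 1.61 CPM in αGlu. In αGlu 1 it lay just under the lowest Ctr library, far above the other αGlu libraries. The log2 fold change was -1.51 ± 0.59 (adjusted p = 0.191 by edgeR) and became -2.32 without αGlu 1 (adjusted p = 0.00435 by edgeR). Rad54b (chr4:11558922-11615805, plus strand) had 1.45, 0.794 and 0.510 CPM in Ctr and 0.401, 0.283 and 0.110 CPM in αGlu, the last of which rests on 3 reads. Its groups did not overlap (-1.83 ± 0.60, adjusted p = 0.167 by edgeR). Without αGlu 1 its log2 fold change was -2.17 (adjusted p = 0.0392 by edgeR).

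Among the 5 members of the first step, the recognition and resection of ends, only Exo1, a nuclease of long-range resection, separated the groups. Exo1 (chr1:175880581-175913489, plus strand) had 2.04, 1.38 and 1.35 CPM in Ctr and 0.631, 0.472 and 0.257 CPM in αGlu. Every αGlu library lay under every Ctr library, with 7 to 15 reads against 29 to 45. Its log2 fold change was -1.83 ± 0.40, with an adjusted p of 0.154 by edgeR and 0.00592 by DESeq2.

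The groups overlapped for each subunit of the complex that senses the ends. Rad50, its ATPase, had 44.1, 43.6 and 42.9 CPM in Ctr and 43.5, 39.6 and 38.8 CPM in αGlu, and αGlu 1 lay within the Ctr range. Its log2 fold change was -0.10 ± 0.07, and -0.16 without αGlu 1. Nbn, the subunit that recruits Atm, had 18.7, 19.7 and 23.3 CPM in Ctr and 21.2, 23.4 and 25.2 CPM in αGlu, with overlap and a log2 fold change of 0.18 ± 0.12. The nuclease Mre11a had 19.4 to 26.9 CPM in Ctr and 16.2 to 24.6 CPM in αGlu (-0.22 ± 0.19). Without αGlu 1 its log2 fold change was -0.40 (adjusted p = 0.086 by edgeR). Blm, a helicase of resection and of joint molecules, had 6.44 to 8.22 CPM in Ctr and 7.30 to 7.63 CPM in αGlu (0.00 ± 0.13).

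The structure-specific nuclease Mus81 was the member with the largest positive log2 fold change. It had 7.90, 9.99 and 8.44 CPM in Ctr and 9.92, 12.1 and 11.8 CPM in αGlu, and αGlu 1 lay just under Ctr 2, so the groups overlapped. The log2 fold change was 0.36 ± 0.14 (adjusted p = 0.190 by edgeR) and became 0.44 without αGlu 1 (adjusted p = 0.0375 by edgeR). Eme1, its partner, did not share this direction, with 0.669 to 1.32 CPM in Ctr and 0.513 to 1.26 CPM in αGlu (-0.48 ± 0.47, and -0.97 without αGlu 1). Msh6, which recognizes mismatches, had 13.4 to 17.2 CPM in Ctr and 14.6 to 18.8 CPM in αGlu (0.17 ± 0.15).

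A number of members share annotated exon sequence with a gene on the opposite strand, among them Fanci with Polg, Fancd2 with Fancd2os, Rad54l with Lrrc41 and Mus81 with Efemp2, and Rad54b shares it with Fsbp on its own strand. Whether the counting used the strand is not given in the sources used here. Chek1, Exo1, Fancb, Brip1 and Brca1 share none in GENCODE M21.

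Other genes of recombination and crosslink repair, 68 that are not among the 31, held genes with higher and genes with lower values in αGlu. Of the 67 that were tested, 34 had a negative and 33 a positive log2 fold change, with a median of -0.01. Their mean log2 CPM was nevertheless lower in every αGlu library, with 3.47, 3.34 and 3.43 in Ctr and 3.30, 3.26 and 3.26 in αGlu. The αGlu values lay below Ctr without overlap for 13, against 15.9% of all genes tested, and above Ctr without overlap for 13, against 14.2%. The edgeR test called 0 of them, with 9 lower and 11 higher at an unadjusted p under 0.05, and DESeq2 called 5 as lower and 1 as higher, against 4.21% of the genes it tested in that direction.

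The genes with the smallest p on that list that are reported here were Hrob (-2.48 ± 0.37), a loader of a helicase in recombination, Rad51ap1 (-2.0 ± 0.36), a cofactor of strand pairing, Rev3l (0.45 ± 0.11), the catalytic subunit of a translesion polymerase, and Clspn (-1.48 ± 0.39), the mediator between Atr and Chek1. Their adjusted p by edgeR was between 0.149 and 0.156. Besides Rev3l, the genes whose αGlu values all lay above Ctr were Faap20 (0.55) of the Fanconi core complex, Hus1 (0.75) and Rad17 (0.16) of the checkpoint clamp and its loader, Etaa1 (0.31), a second activator of Atr, Eme2 (0.63), an alternative partner of Mus81, Rad51d (0.42), a relative of Rad51b, and Rmi2 (1.27), a partner of Blm. The same held for Rbbp8 (0.38), which starts resection, Uimc1 (0.32), which brings Brca1 to ubiquitin, Rif1 (0.27) and Shld2 (0.31), which hold resection back, and the nuclease subunit Ercc1 (0.11), all given as log2 fold changes. DESeq2 called Rmi2 of these, and the edgeR test none. The genes whose αGlu values all lay below Ctr are not all named. Among them Dna2 had 34.3 to 39.0 CPM in Ctr and 8.51 to 27.8 CPM in αGlu (-1.16 ± 0.43). DESeq2 called Dna2 as lower.

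Repair routes other than recombination gave medians near those of all genes. Over 54 genes of end joining, mismatch, base excision and nucleotide excision repair the median log2 fold change was 0.06. The αGlu values lay below Ctr without overlap for 7, against 15.9% of all genes tested, and above for 10, against 14.2%. The edgeR test called 0 of them, with 5 lower and 8 higher at an unadjusted p under 0.05. In end joining the smallest p belonged to Dclre1c (0.53 ± 0.13), the nuclease Artemis, and Xrcc4 (0.37 ± 0.11), a ligase cofactor. In mismatch repair it belonged to Msh3 (0.76 ± 0.24) and Mlh3 (0.37 ± 0.14). In base excision it belonged to the glycosylase Neil3 (-3.61 ± 0.56) and the endonuclease Apex1 (-0.39 ± 0.10), and in nucleotide excision to Ercc6 (-1.34 ± 0.36), of the transcription-coupled branch, and Gtf2h4 (0.39 ± 0.12), a subunit of TFIIH. Neil3 and Ercc6 were called by DESeq2 as lower in αGlu.

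**Figure D4:**
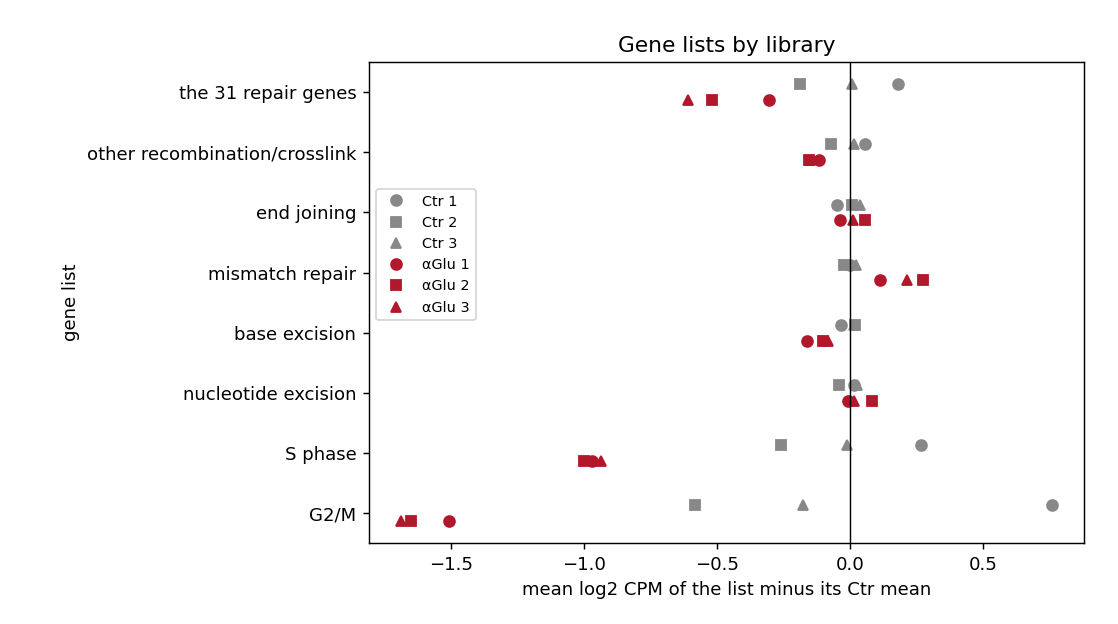
Mean log2 CPM of each gene list in each library, as the difference from the mean of the 3 Ctr libraries, with Ctr in grey and αGlu in red and the replicate number as the symbol. All αGlu libraries lie left of all Ctr libraries for the 31 repair genes, the other recombination genes, base excision, S phase and G2/M, and the distance is longest for G2/M, whereas for mismatch repair they lie to the right.

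Genes of the cell cycle also had lower values in the αGlu libraries. Of 24 S phase genes 22 had a negative log2 fold change (median -0.70), and for 16 all αGlu values lay below Ctr. Their mean log2 CPM was 3.84, 3.32 and 3.57 in Ctr and 2.61, 2.57 and 2.64 in αGlu. Pcna, the sliding clamp of replication, had a log2 fold change of -1.30 ± 0.42. Of 25 G2/M genes 24 had a negative value (median -1.5), and for 19 all αGlu values lay below Ctr. The exception was Mki67, a proliferation marker, which had 49.2, 13.2 and 18.8 CPM in Ctr and 11.9, 108 and 138 CPM in αGlu (1.67 ± 0.92). The edgeR test called 0 genes of either list, with 18 and 19 lower at an unadjusted p under 0.05, and DESeq2 called 8 and 17 as lower. The part of cell cycle activity in the values of the repair genes was not tested.

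Markers of other cells were also set beside them. Of 5 genes of haematopoietic progenitors, 2 exceeded 1 CPM on average, and their summed level was 3.59 to 5.91 CPM in Ctr and 1.39 to 2.35 CPM in αGlu. Of these Kit, the stem cell factor receptor, had 3.09, 2.01 and 1.62 CPM in Ctr and 1.15, 0.756 and 0.403 CPM in αGlu, and Gfi1b was likewise lower without overlap, whereas Cd34 overlapped. Myb lay the other way without overlap, with 0.0928 to 0.209 CPM in Ctr and 0.220 to 0.459 CPM in αGlu. The summed level of 9 neutrophil markers was 107 to 160 CPM in Ctr and 186 to 609 CPM in αGlu, nearly all of it Csf3r. S100a9 and Ngp were lower in αGlu without overlap, at 0.139 to 0.954 and 0.418 to 1.63 CPM in Ctr and 0 to 0.115 and 0 to 0.401 CPM in αGlu. Of the progenitor and neutrophil markers, DESeq2 called S100a9 (adjusted p = 0.0475), Kit (0.0303) and Cd34 (0.0895) as lower. It called Csf3r as higher (adjusted p = 0.00426). S100a8 lay the other way with overlap, at 0.510 to 0.909 CPM in Ctr and 0.574 to 2.11 CPM in αGlu (0.90 ± 0.51). Mpo overlapped (-1.49 ± 1.30), and Camp had reads only in αGlu 2 and αGlu 3. Without αGlu 1, edgeR called S100a8 and Csf3r of these markers as higher and S100a9, Ngp, Mpo, Kit and Gfi1b as lower. The summed level of 6 erythroid markers was 0.974 to 1.04 CPM in Ctr and 0.257 to 0.631 CPM in αGlu, with 3 of them at 0 reads. Fibroblast markers (1.63 to 7.18 and 1.01 to 2.87 CPM), mast cell and basophil markers (1.73 to 2.72 and 0.880 to 4.82 CPM) and dendritic cell markers (1.82 to 2.30 and 1.03 to 1.61 CPM) were low in both groups. Their part in the values of the repair genes was not tested.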

How the data were processed

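Reads were mapped and counted by the authors in QIAGEN's RNA-seq Analysis Portal, and they deposited 1 table of 41549 genes. GRCm38 is named in the submitters' processing notes without a role, and the aligner and the annotation are not given in the sources used here. The deposited counts are whole reads per gene without normalization, and the deposited TPM values are scaled by the authors for gene length and depth. The deposited RPKM and CPM columns were not used. TPM served only for levels between genes.

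Counts were filtered with filterByExpr (minimum count 10, minimum total 15), scaled with TMM factors and fitted with the quasi-likelihood model of edgeR 4.0.16 in R 4.3.3 with the group as its only term. P-values are two-sided and were adjusted (Benjamini-Hochberg) over the 11933 genes tested, and the scripts were checked on simulated data. Calls needed an adjusted p below 0.1 together with a log2 fold change beyond 1 in either direction. CPM values were computed on the TMM-scaled library sizes, with a prior count of 2 where a log2 was taken. Fold changes are given with the SE derived from the F statistic. P-values weigh the difference between the groups against the spread between these libraries.

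The members and lists were chosen with earlier results of these data known. Values of every library are given for the members with the 10 smallest p, the 4 with the highest mean TPM, and Brca1, Brca2, Fancd2, Fanci and Atm. Those of Rad54l, Mus81, Dna2 and the single progenitor, neutrophil and erythroid markers, some as ranges, were added after their values had been seen. Of the other lists, the 5 genes with the smallest p, those higher without overlap, and 2 per further repair list are named, except items that are not reported here. H2ax stands for H2afx. Coordinates are from GENCODE M21 (GRCm38), matched by Ensembl ID. Alternatives were DESeq2 1.42.0, limma-voom (limma 3.58.1), RLE factors, library size alone, other filters and thresholds, the replicate number as a block, and each library left out in turn.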

Additional observations from a re-analysis of the deposited data

How the results depend on the processing

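Calls differed between the tests and with 1 library. Over all genes edgeR called 0, DESeq2 1117, and leaving out single libraries 0 to 2290, the latter only without αGlu 1. The corresponding counts were 0, 6 and 0 to 6 for the 31 repair genes, 0, 6 and 0 to 7 for the other recombination and crosslink repair genes, and 0, 2 and 0 to 4 for the other repair routes, each upper value again only without αGlu 1. RLE factors, library size alone, other filters, other thresholds and limma-voom gave 0 in all of these. Whether the numbers of the replicates pair these libraries is not stated in the sources used here. The study used a paired t test for the level of the tRNA fragment after this transfection of Mφs. Same-numbered libraries correlated at 0.08, 0.06 and 0.15 in their deviations from the group means, and each library correlated best with its own number. With the replicate number as a block 17 genes were called, none of them among the 31 (edgeR, with 0 members before). The median log2 fold change of the 31 was between -0.40 and -0.20 under all alternatives, and 10 to 17 members had no overlap between groups, with 10 under library size alone. The 17 were found without αGlu 1, where 2 αGlu libraries were set against 3 Ctr libraries and a separation is easier to reach. The share over all genes is given only for the main setting with all 6 libraries (15.9%), so these counts cannot be set against it. The signs of 6 genes near 0 were not stable. Without αGlu 1, Rad51b was at -0.12, Blm at -0.02, Fanca at 0.10 and Atm at -0.15. Without Ctr 2, Rad51c was at -0.09 and Blm at -0.10, and without αGlu 2, Rad51c was at -0.14 and Xrcc3 at 0.19. Xrcc3 was at 0.19 without Ctr 3 and at 0.08 without αGlu 3, Fanca at 0.08 without Ctr 1 and at 0.047 with library size alone, Atm at -0.06 without Ctr 3, and Blm at -0.0024 with RLE factors and -0.0051 with DESeq2. Over all single libraries left out, the values ran up to 0.48 for Rad51b, 0.68 for Rad51c 0.19 for Atm and 0.091 for Blm, and down to -0.56 for Xrcc3 and -0.21 for Fanca. The causes were not tested. A filter of CPM above 1 in 3 libraries tested 27 of the 31 genes. The block and limma-voom give no count of groups without overlap. Depth limits the lowest genes, since 5 members had fewer than 10 reads in at least 1 library.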
